A study of Mus musculus with 20 samples.

Results

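The 9 serotonin receptor genes described here, Htr1a, Htr1b, Htr1f, Htr2a, Htr2c, Htr3a, Htr4, Htr5a and Htr7, were chosen by symbol and were all present among the 17148 genes listed for both brain regions. RNA of dissected, flash-frozen mouse hippocampus and frontal cortex was sequenced in 20 libraries from 2 genotypes, Ncs1-/- and wild type (Ncs1+/+), all on the C57Bl6/J strain background. Ncs1 encodes a neuronal protein that senses calcium by binding it, and the labels do not name the part of the gene that was deleted. The 4 groups were Ncs1-/- hippocampus, wild-type hippocampus, Ncs1-/- frontal cortex and wild-type frontal cortex, with 5 libraries each. The labels give no age or sex and do not tie libraries to separate mice, so each p-value reflects only the variation among these libraries, some of which may be technical. All 9 genes passed the filter on low counts in every comparison.

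Serotonin reaches the forebrain along axons of the raphe nuclei, and its action on a target neuron depends on which receptors that neuron carries. The receptors of Htr1a, Htr1b, Htr1f and Htr5a couple to inhibitory G proteins and lower cyclic AMP, those of Htr2a and Htr2c couple to Gq and phospholipase C, and those of Htr4 and Htr7 couple to Gs and raise cyclic AMP. Htr3a encodes the subunit of a cation channel opened directly by serotonin. In the forebrain Htr1a is known from pyramidal and granule cells of the hippocampus, Htr2a from deep-layer pyramidal neurons of the cortex, Htr3a from interneurons of the caudal ganglionic eminence, and Htr2c from choroid plexus epithelium as well as from neurons.

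Promoter sequences from RefSeq, build GRCm38.p6, were found for 7 of the 9 genes, Htr1a, Htr1b, Htr1f, Htr2a, Htr2c, Htr5a and Htr7. They run from 250 bases before to 50 bases after a start in the RefSeq table, 5′ to 3′ on the strand of the gene. For 6 genes that start is the gene start of the deposited table. The Htr7 window begins within the gene, downstream of its deposited start, and is not described. Those printed belong to Htr1a, which was higher in hippocampus, and to Htr2a and Htr1f, which had the largest differences in the other direction. The intervals are chr13:105443443-105443742 on the plus strand for Htr1a, chr14:74640624-74640923 on the plus strand for Htr2a and chr16:65105735-65106034 on the minus strand for Htr1f, and capitals mark a GC box.
Htr1a: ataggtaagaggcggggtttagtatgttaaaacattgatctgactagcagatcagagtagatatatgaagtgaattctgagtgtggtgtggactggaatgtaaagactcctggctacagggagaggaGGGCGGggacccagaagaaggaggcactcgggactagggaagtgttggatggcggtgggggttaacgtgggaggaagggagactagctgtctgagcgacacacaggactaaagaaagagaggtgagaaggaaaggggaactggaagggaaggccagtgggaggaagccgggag
Htr2a: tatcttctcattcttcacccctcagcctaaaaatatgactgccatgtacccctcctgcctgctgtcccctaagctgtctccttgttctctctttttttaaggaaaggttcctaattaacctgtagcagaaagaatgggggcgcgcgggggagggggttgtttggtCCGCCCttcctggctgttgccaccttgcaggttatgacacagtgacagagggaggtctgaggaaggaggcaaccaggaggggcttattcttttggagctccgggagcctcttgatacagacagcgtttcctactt
Htr1f: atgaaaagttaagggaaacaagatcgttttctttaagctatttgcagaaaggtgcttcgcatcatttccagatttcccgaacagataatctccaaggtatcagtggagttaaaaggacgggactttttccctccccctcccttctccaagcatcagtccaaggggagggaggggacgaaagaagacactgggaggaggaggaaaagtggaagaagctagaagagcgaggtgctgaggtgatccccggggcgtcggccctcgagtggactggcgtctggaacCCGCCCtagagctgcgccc
The motifs searched on both strands were the TATA box TATAAA, the GC box GGGCGG, the CRE core TGACG, the CCAAT box CCAAT and the E-box CAGCTG. The Htr1a match begins 123 bases before the start, the Htr2a match 85 bases before it, and the Htr1f match lies at base 32 of the transcribed part. A GC box was present in 35.7% of the 32851 promoters of the table, and it was present in 3 of 6 receptor promoters. The CCAAT box had 2 matches in Htr1b and 1 in Htr2c and occurred in 37.4% of all promoters. Htr5a held 1 CAGCTG, found in 16.3% of promoters. TATAAA, in 13.6% of promoters, and TGACG, in 20.8%, were in 0 of the 6 windows. Such matches describe letters in a window and are not binding sites.

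Total counts ranged from 16.6 M to 34.6 M per library. Ncs1, the targeted gene, was at 276.7 to 326.3 CPM in Ncs1-/- hippocampus, against 427.0 to 470.7 CPM in wild-type hippocampus, and at 256.2 to 264.8 CPM in Ncs1-/- cortex, against 350.1 to 389.5 CPM in wild-type cortex, where CPM are counts per 1000000 after scaling by the trimmed mean of M values (TMM). In neither region did an Ncs1-/- library reach the wild-type range, and reads were still assigned to the gene. Markers of dentate gyrus and CA fields (8 of 8 listed, with Prox1 and Dsp as defining genes) summed to 357 to 566 CPM in hippocampus and 45.4 to 52.7 CPM in cortex. Markers of cortical layers (10 of 10 listed, with Rorb and Fezf2) summed to 428 to 548 CPM in hippocampus and 792 to 910 CPM in cortex, although 3 of the 10 were called higher in hippocampus in each genotype, among them Fezf2. Markers of striatal projection neurons (10 of 10 listed, with Drd1 and Adora2a) summed to 146 to 207 CPM in hippocampus and 703 to 1387 CPM in cortex, and markers of choroid plexus differed between libraries by much more, as given beside Htr2c. Ncs1-/- cortex replicate 1 stood apart from its group, with a chi-square per degree of freedom of 19.8 to 26.4 against the others, which differed among themselves by 3.45 to 6.40, and with the highest share of Rn45s, a ribosomal RNA gene, of the 20 libraries (4.0%). By the same measure Ncs1-/- hippocampus replicate 1 was at 35.85 to 58.49 against its group, whose others differed among themselves by 7.565 to 34.85. Wild-type hippocampus replicate 1 was at 18.24 to 32.4 against its group, whose others differed among themselves by 10.81 to 19.34. The regions were deposited in separate tables, and the library names carry a different lane token for each region, so region, table and lane cannot be told apart.

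The receptors were ordered by level with CPM per kb of exons, since counts grow with transcript length. In Ncs1-/- hippocampus Htr1a was highest at 11.3 ± 0.389 CPM per kb (SD, n = 5), followed by Htr2c at 7.81 ± 2.27 and Htr3a at 4.86 ± 0.748. Htr1b, Htr7, Htr4 and Htr5a lay together between 3.31 and 3.73 CPM per kb, and Htr2a at 1.96 ± 0.446 and Htr1f at 0.888 ± 0.217 were lowest. Wild-type hippocampus had the same receptors at the top and bottom, with Htr1a at 11.5 ± 1.17, Htr2c at 7.73 ± 1.83, Htr3a at 5.10 ± 0.226, Htr2a at 1.78 ± 0.292 and Htr1f at 0.874 ± 0.326 CPM per kb (SD, n = 5). The ranges of Htr1a and Htr2c overlapped in both hippocampus groups, as did those of each pair of neighbours from Htr1b down to Htr4 or Htr5a. The highest Htr2c was 11.9 CPM per kb in Ncs1-/- replicate 2 and 10.6 in wild-type replicate 4. The lowest Htr1a was 10.8 in Ncs1-/- and 9.68 in wild type. Those Htr2c libraries were also the richest in choroid plexus RNA, as given beside Htr2c.

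Cortex had another order. In Ncs1-/- cortex Htr2c led at 8.36 ± 0.649 CPM per kb, before Htr1b at 6.80 ± 1.17, Htr2a at 6.23 ± 0.263, Htr5a at 5.55 ± 0.453 and Htr1a at 4.81 ± 0.411 (SD, n = 5). In wild-type cortex Htr2c was at 7.0 ± 1.44, Htr2a at 6.09 ± 1.45, Htr1b at 6.01 ± 1.48, Htr5a at 5.86 ± 0.616 and Htr1a at 5.10 ± 0.716 CPM per kb (SD, n = 5). Ranges of neighbours overlapped throughout these leading places, so their order is not resolved. Htr7 came next at 3.65 ± 0.729 in Ncs1-/- and 3.75 ± 0.504 in wild-type cortex, and its range did not reach that of the next gene. Htr4 was lowest, at 0.855 ± 0.0449 CPM per kb in Ncs1-/- cortex and 0.649 ± 0.212 in wild-type cortex.

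Whether Htr1a or Htr2c leads in hippocampus turned with the length used for Htr2c. The exons of Htr2c together span 9.33 kb and its longest annotated transcript 4.88 kb, and with the latter Htr2c was at 14.9 CPM per kb in Ncs1-/- and 14.8 CPM per kb in wild-type hippocampus, above Htr1a. The levels of the 9 genes summed to 40.9 ± 2.0 CPM per kb in Ncs1-/- hippocampus, 41.2 ± 2.28 in wild-type hippocampus, 40.7 ± 1.66 in Ncs1-/- cortex and 38.6 ± 2.35 in wild-type cortex (SD, n = 5 each). The sums lay close together while their makeup differed.

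**Figure D1:**
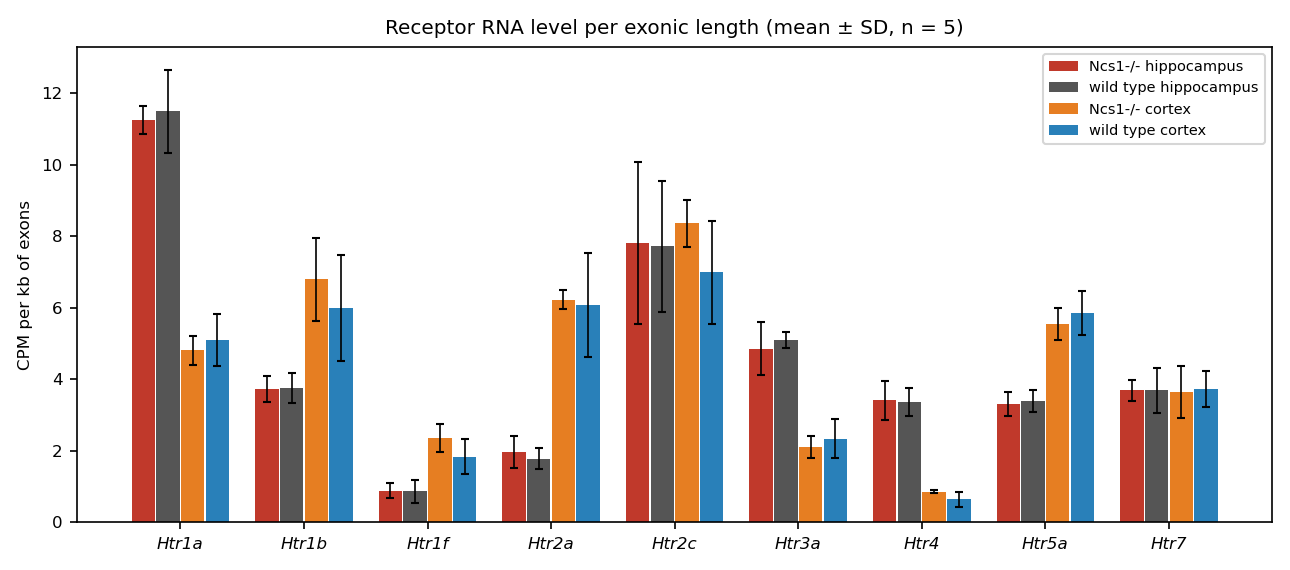
Level of each receptor in CPM per kb of exons in the 4 groups, with bars for the mean and whiskers for the SD of 5 libraries. Htr1a stands at 11.3 and 11.5 CPM per kb in the hippocampus groups, against 4.81 and 5.10 in the cortex groups, and Htr2a shows the opposite, at 1.96 and 1.78 against 6.23 and 6.09.

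The regions were compared within each genotype to ask which receptors differ between hippocampus and frontal cortex. Htr1a, Htr3a and Htr4 were higher in hippocampus and Htr1b, Htr1f, Htr2a and Htr5a were lower, in Ncs1-/- and in wild type alike, whereas Htr2c and Htr7 did not pass. By the quasi-likelihood test of edgeR, adjusted by Benjamini-Hochberg over all genes, 7 of 9 receptors had an adjusted p under 0.05 in each genotype. Over all genes tested the share was 38.8% in Ncs1-/- and 39.5% in wild type, a background in which a call between regions is common. The 3 receptors called higher in hippocampus stand beside 19.2% of all genes in Ncs1-/- and 18.8% in wild type, and the 4 called lower beside 19.6% and 20.7%. Hippocampus and cortex libraries did not overlap for 7 receptors in Ncs1-/- and 6 in wild type, where 29.8% and 29.3% of all genes had no overlap. The median log2 fold change of the 9 was -0.10 in Ncs1-/- and -0.03 in wild type, beside 0.01 and 0.0071 over all genes. Lower RNA per cell and fewer cells of a type cannot be told apart in such tissue samples.

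Htr4 (chromosome 18, 62324204 to 62496577, plus strand) encodes a Gs-coupled receptor that raises neuronal excitability in the hippocampus. In hippocampus its level was 15.8, 14.8, 20.7, 18.1 and 14.4 CPM in the Ncs1-/- libraries, against 13.6, 16.9, 15.7, 18.4 and 17.9 CPM in the wild-type libraries. In cortex it was 4.13, 4.53, 4.16, 3.92 and 4.23 CPM in the Ncs1-/- libraries, against 3.61, 4.0, 1.39, 3.23 and 3.70 CPM in the wild-type libraries. Every hippocampus library lay above every cortex library, and wild-type cortex replicate 3, at 36 counts, lay well below its group. The log2 fold change of hippocampus over cortex was 1.99 (SE 0.11, edgeR adjusted p 1.01e-08) in Ncs1-/- and 2.38 (SE 0.20, edgeR adjusted p 9.14e-07) in wild type, which are 3.98-fold and 5.22-fold differences and the largest among the 9 receptors. Without wild-type cortex replicate 3 the wild-type value was 2.17.

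Htr1a (chromosome 13, 105443693 to 105448133, plus strand), whose intronless gene encodes a receptor that hyperpolarises neurons through potassium channels, was at 50.1, 48.6, 49.3, 53.0 and 51.3 CPM in Ncs1-/- hippocampus. In wild-type hippocampus it was at 43.4, 50.9, 57.9, 52.6 and 52.9 CPM. The cortex values were 24.2, 22.6, 19.5, 20.8 and 20.8 CPM in Ncs1-/- and 25.5, 23.5, 22.3, 25.3 and 17.6 CPM in wild type. The regions did not overlap, and wild-type hippocampus replicate 1 was the lowest of the 10 hippocampus libraries. The same library had the lowest sum of dentate gyrus and CA markers, 357 CPM, and wild-type hippocampus replicate 3 had the highest of both, with a sum of 566 CPM; the part of these cells in the Htr1a level was not tested. Htr1a differed between regions by 1.23 on the log2 scale (SE 0.06, edgeR adjusted p 4.30e-09) in Ncs1-/- and 1.16 (SE 0.10, edgeR adjusted p 8.50e-07) in wild type.

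Htr3a (chromosome 9, 48899213 to 48911099, minus strand), the channel subunit, was at 12.6, 9.98, 8.48, 10.2 and 9.32 CPM in Ncs1-/- hippocampus and 11.1, 10.6, 9.82, 10.8 and 10.8 CPM in wild-type hippocampus. In cortex its level was 5.00, 3.35, 4.27, 4.83 and 4.59 CPM in Ncs1-/- and 5.47, 5.74, 5.34, 4.85 and 2.92 CPM in wild type. No cortex library reached a hippocampus library, and the log2 fold change was 1.2 (SE 0.13, edgeR adjusted p 8.68e-06) in Ncs1-/- and 1.11 (SE 0.14, edgeR adjusted p 3.74e-05) in wild type. The summed markers of interneurons from the caudal ganglionic eminence (10 of 10 listed, with Vip and Calb2) were lower in hippocampus, at 604 to 686 CPM in Ncs1-/- and 645 to 673 CPM in wild type, than in cortex, at 656 to 736 CPM in Ncs1-/- and 677 to 767 CPM in wild type. The list did not move one way, since 5 of its 10 genes were called higher and 3 lower in hippocampus in Ncs1-/-, and 6 higher and 3 lower in wild type. Lamp5 averaged 32.7 CPM in Ncs1-/- hippocampus and 161 CPM in Ncs1-/- cortex, and 36.8 CPM in wild-type hippocampus and 186 CPM in wild-type cortex. Calb2 went the other way, at 26.6 CPM in hippocampus and 9.73 CPM in cortex in Ncs1-/-, and 26.1 CPM in hippocampus and 9.58 CPM in cortex in wild type. The part of these cells in the Htr3a level was not tested.

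Htr2a (chromosome 14, 74640874 to 74706859, plus strand), the Gq-coupled receptor through which classical psychedelics act, had the largest drop in hippocampus among the 9. Its hippocampus levels were 7.27, 10.1, 13.9, 12.4 and 11.5 CPM in Ncs1-/- and 7.19, 11.3, 9.87, 10.9 and 10.6 CPM in wild type. Cortex libraries were at 35.4, 36.8, 34.0, 35.3 and 32.9 CPM in Ncs1-/- and 21.5, 33.4, 38.5, 34.0 and 43.4 CPM in wild type. The regions did not overlap, the Ncs1-/- cortex libraries lay close together, and wild-type cortex replicate 1 was low. Between regions the log2 fold change was -1.67 (SE 0.13, edgeR adjusted p 2.91e-07) in Ncs1-/- and -1.79 (SE 0.17, edgeR adjusted p 2.70e-06) in wild type.

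Htr1f (chromosome 16, 64924729 to 65105784, minus strand), which encodes the receptor targeted by a class of migraine drugs, was the scarcest of the 9 in hippocampus, with 25 to 77 counts there. It was at 1.48, 2.59, 2.27, 2.98 and 2.13 CPM in Ncs1-/- hippocampus and 1.21, 1.88, 3.51, 2.39 and 2.28 CPM in wild-type hippocampus. In cortex it was at 4.88, 6.90, 6.80, 5.08 and 6.77 CPM in Ncs1-/- and 3.10, 4.80, 5.42, 4.07 and 6.35 CPM in wild type. The regions did not overlap in Ncs1-/-, but in wild type hippocampus replicate 3 lay above cortex replicate 1. The log2 fold change was -1.42 (SE 0.18, edgeR adjusted p 3.21e-05) in Ncs1-/- and -1.08 (SE 0.25, edgeR adjusted p 0.00361) in wild type.

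In Htr2a and in Htr1f, replicate 1 was the lowest library in Ncs1-/- hippocampus, in wild-type hippocampus and in wild-type cortex. In these libraries long genes were also low against short genes. The median deviation from the region mean of the 10% of genes with the longest exons, minus that of the 10% with the shortest, was -0.33, -0.25 and -0.21 on the log2 scale, the lowest of each group. The highest value was 0.33 among hippocampus libraries and 0.15 among cortex libraries. With the trend on length removed, Htr2a differed between regions by -1.66 in Ncs1-/- and -1.77 in wild type and Htr1f by -1.47 in Ncs1-/- and -1.14 in wild type, so the region differences were about as large without the trend.

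Htr5a (chromosome 5, 27841947 to 27855086, plus strand), a receptor coupled to inhibitory G proteins, was at 15.6 to 19.9 CPM in Ncs1-/- hippocampus with a median of 18.0, and at 17.1 to 21.1 CPM in wild-type hippocampus with a median of 17.7. Cortex libraries were at 27.5 to 33.8 CPM in Ncs1-/- with a median of 29.6, and at 28.2 to 36.3 CPM in wild type with a median of 32.0. There was no overlap between the regions. Its log2 fold change was -0.74 (SE 0.08, edgeR adjusted p 8.93e-06) in Ncs1-/- and -0.80 (SE 0.08, edgeR adjusted p 6.09e-06) in wild type.

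Htr1b (chromosome 9, 81628291 to 81633832, minus strand), a receptor of axon terminals that limits transmitter release, was at 16, 16.8, 18.4, 16.6 and 20.3 CPM in Ncs1-/- hippocampus and 15.9, 20.1, 16.8, 16.2 and 19.5 CPM in wild-type hippocampus. Cortex values spread more, at 31.5, 25.5, 34.5, 40.0 and 29.0 CPM in Ncs1-/- and 25.9, 28.2, 20.4, 27.8 and 39.6 CPM in wild type. Even so the regions did not overlap, and the log2 fold change was -0.86 (SE 0.11, edgeR adjusted p 3.56e-05) in Ncs1-/- and -0.69 (SE 0.14, edgeR adjusted p 0.00197) in wild type. The gene overlaps D430036J16Rik on the other strand, and its counts were fractional in all 10 libraries of each table, so the 2 genes may share reads. With the counts of both genes summed the log2 fold change was -0.87 in Ncs1-/- and -0.67 in wild type.

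Within cortex the libraries at either end of Htr1b were also at the ends of the striatal marker sums. The highest Htr1b in each genotype was in the library with the highest marker sum, Ncs1-/- cortex replicate 4, with a sum of 1387 CPM, and wild-type cortex replicate 5, with 1161 CPM. The lowest Htr1b was in the libraries with the lowest sums, Ncs1-/- cortex replicate 2, with 761 CPM, and wild-type cortex replicate 3, with 703 CPM. The order between these ends was not the same, since Ncs1-/- cortex replicate 1, with a sum of 1171 CPM, was below replicate 3, with 1009 CPM, in Htr1b. The part of striatal tissue in the region difference of Htr1b was not tested.

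Htr2c (chromosome X, 146962513 to 147197277, plus strand), a Gq-coupled receptor whose transcript is edited, did not pass the test between regions. It was at 61.7, 111, 62.7, 62.5 and 67.0 CPM in Ncs1-/- hippocampus and 70.7, 74.1, 52.5, 98.9 and 64.3 CPM in wild-type hippocampus. In cortex it was at 86.8, 73.4, 75.1, 81.8 and 73.0 CPM in Ncs1-/- and 59.1, 72.8, 44.6, 77.5 and 72.5 CPM in wild type. In each hippocampus group 1 library lay well above the others. Between regions the log2 fold change was -0.10 (SE 0.15, 95% interval -0.41 to 0.22, edgeR adjusted p 0.636) in Ncs1-/- and 0.14 (SE 0.17, 95% interval -0.22 to 0.50, edgeR adjusted p 0.544) in wild type.

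Those 2 hippocampus libraries were also the richest in choroid plexus RNA. Ttr, which encodes transthyretin and is an abundant transcript of the choroid plexus, was at 3106 CPM in Ncs1-/- hippocampus replicate 2 and 1994 CPM in wild-type hippocampus replicate 4, followed by 318 CPM in Ncs1-/- hippocampus replicate 4, and at 2.98 to 28.7 CPM in the other hippocampus libraries. The sum of 12 choroid plexus markers (12 of 12 listed, with Ttr and Folr1) ranged from 42.1 to 3779 CPM in Ncs1-/- hippocampus, 35.7 to 2457 CPM in wild-type hippocampus, 13.7 to 277 CPM in Ncs1-/- cortex and 8.17 to 21.4 CPM in wild-type cortex. The cortex library with 277 CPM, Ncs1-/- replicate 1, had the highest Htr2c of the cortex libraries. Without Ncs1-/- hippocampus replicate 2, Htr2c was called lower in Ncs1-/- hippocampus than in cortex, at a log2 fold change of -0.30 (edgeR adjusted p 0.00255), and without the 3 libraries highest in Ttr it was called as well, at -0.29 (edgeR adjusted p 0.00809). In wild type, leaving out replicate 4, the library among them, left a log2 fold change of -0.0038 (edgeR adjusted p 0.988), so the call in Ncs1-/- turned on 1 library and none was made in wild type.

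**Figure D2:**
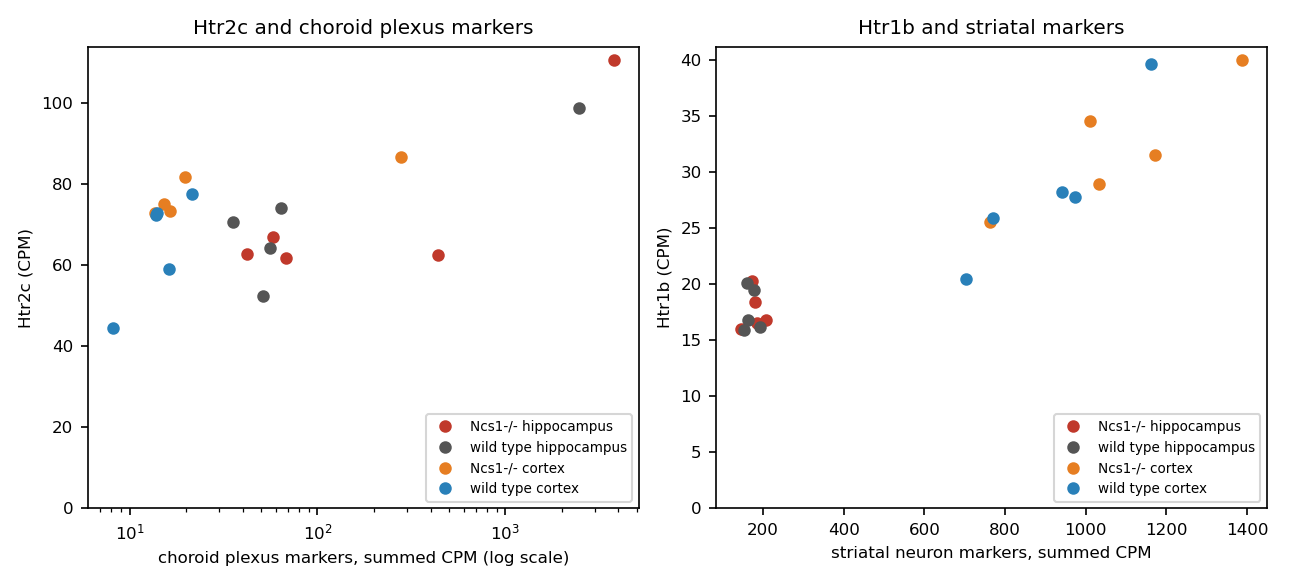
Left, Htr2c in CPM against the summed CPM of 12 choroid plexus markers on a log scale, and right, Htr1b in CPM against the summed CPM of 10 striatal neuron markers, with 1 point per library and colours for the 4 groups. The hippocampus libraries with 3779 and 2457 CPM of choroid plexus markers have the highest Htr2c, and the cortex libraries with 1387 and 1161 CPM of striatal markers have the highest Htr1b of their genotypes, while an Ncs1-/- cortex library with 1171 CPM of these markers has 31.5 CPM of Htr1b.

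Htr7 (chromosome 19, 35958418 to 36058133, minus strand), a Gs-coupled receptor known for its part in circadian phase and in hippocampal excitability, did not pass the test between regions either. It was at 11 to 13.6 CPM in Ncs1-/- hippocampus with a median of 12.6, and at 9.82 to 14.6 CPM in wild-type hippocampus with a median of 13.1. In cortex it was at 10.8 to 16.7 CPM in Ncs1-/- with a median of 11.4, and at 10.8 to 15.3 CPM in wild type with a median of 12.8. All 4 groups overlapped. The log2 fold change was 0.02 (SE 0.12, 95% interval -0.23 to 0.28) in Ncs1-/- and -0.03 (SE 0.12, 95% interval -0.30 to 0.24) in wild type, and the log2 fold changes of the 7 called receptors lie outside both intervals.

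**Figure D3:**
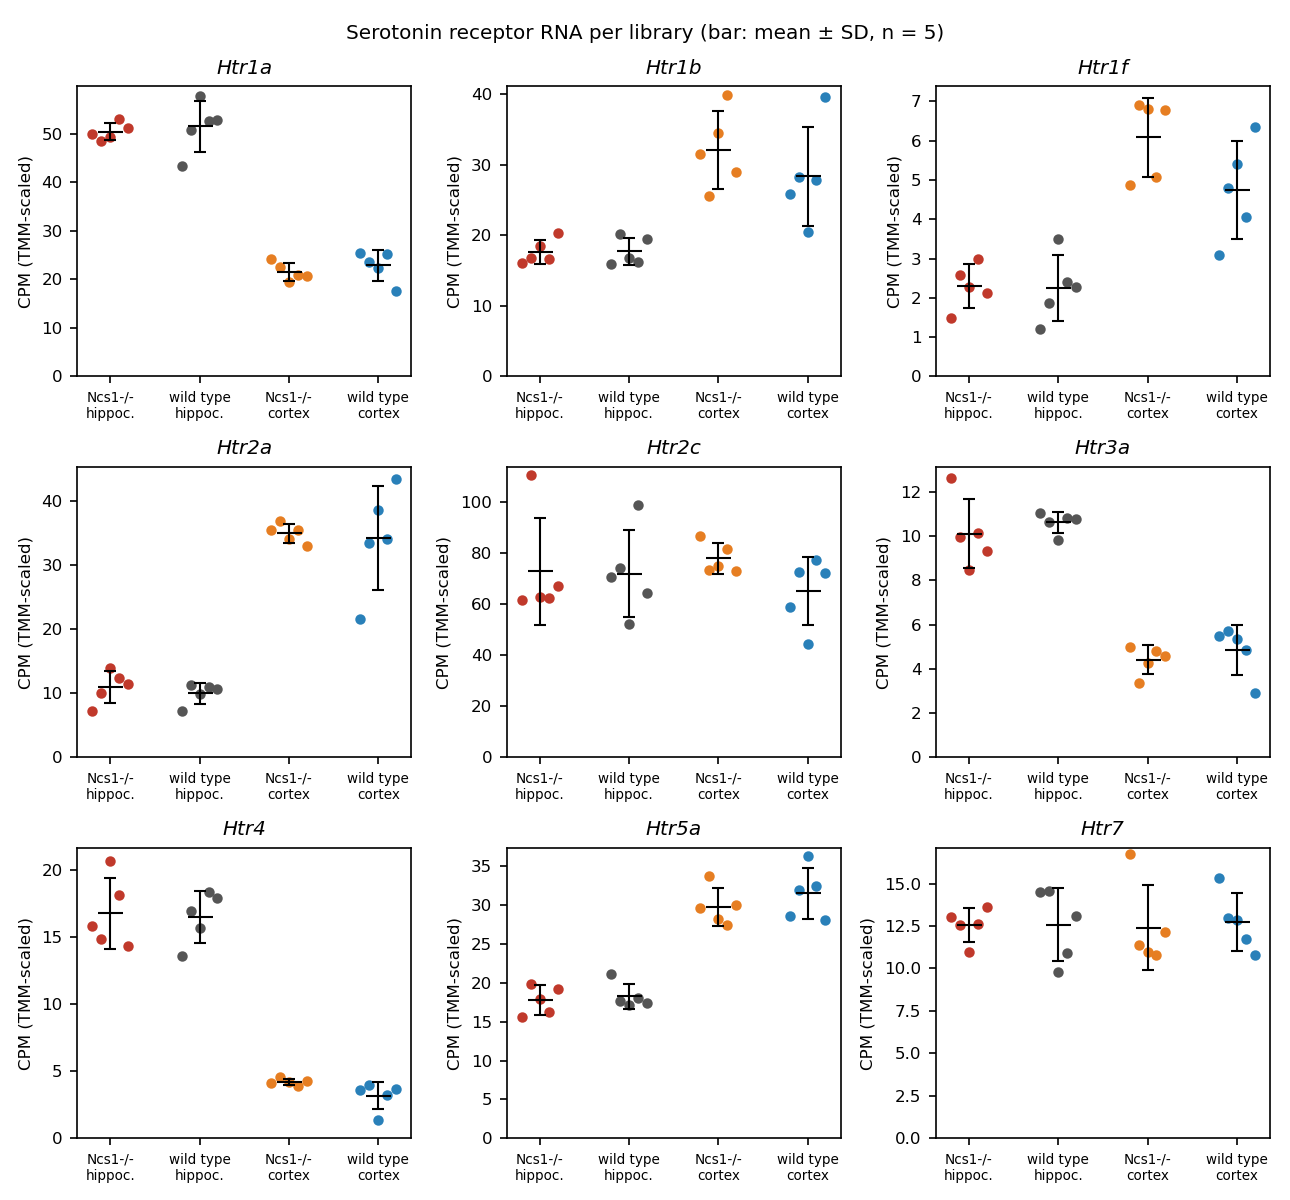
Level of each receptor in CPM after TMM scaling in each of 20 libraries, with Ncs1-/- left of wild type, hippocampus left of cortex, and a bar for the mean and SD of 5 libraries. The regions separate for Htr1a, Htr1b, Htr2a, Htr3a, Htr4 and Htr5a in both genotypes, and Ncs1-/- and wild-type libraries overlap in every panel.

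The genotypes were compared within each region to ask whether loss of Ncs1 goes with a change in serotonin receptor RNA. In hippocampus 0 of 9 receptors passed edgeR's quasi-likelihood test, where 4 of 15042 genes, or 0.0266%, did, and 0 of 9 had an unadjusted p under 0.05, against 3.78% of all genes. DESeq2 and limma-voom also called 0 receptors there. The log2 fold changes of Ncs1-/- over wild type lay between -0.06 for Htr3a and 0.15 for Htr2a, each edgeR adjusted p was at least 0.991, and the median was 0.01, beside 0.0070 over all genes. With 1 library left out, Htr2a ranged from 0.049 to 0.26. Htr1a had the tightest estimate, at -0.02 with a 95% interval from -0.17 to 0.13, and Htr1f the widest, at 0.02 with an interval from -0.54 to 0.59. In each of the 9 receptors the Ncs1-/- and wild-type hippocampus libraries overlapped, where 0.479% of all genes had no overlap.

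In frontal cortex 0 of 9 receptors passed as well, where 4 of 14823 genes, or 0.0270%, did. Without wild-type replicate 5, 563 of 14915 genes and 0 of 9 receptors passed. An unadjusted edgeR p under 0.05 was found for 1 of 9, Htr2c, against 14.8% of all genes, and which receptors had one depended on the fit. With the replicate number as a block the edgeR p was 0.00760 for Htr1f, 0.0216 for Htr2c and 0.0462 for Htr4, and with the length trend removed it was 0.0468 for Htr1f and 0.100 for Htr2c, with adjusted p-values of 0.215 or more in each case. Its cortex levels, given above, averaged 78.0 ± 6.06 CPM in Ncs1-/- and 65.3 ± 13.4 CPM in wild type (SD, n = 5 each), and the groups overlapped. The log2 fold change was 0.26 (SE 0.12, 95% interval 0.0066 to 0.52), with an edgeR p of 0.0451 and an adjusted p of 0.329. Wild-type replicate 3 was the lowest library, and without it the log2 fold change was 0.15. Without Ncs1-/- replicate 1, the cortex library richest in choroid plexus markers, it was 0.22, with an edgeR p of 0.101.

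Htr4 and Htr1f had the largest log2 fold changes in cortex and did not pass. Htr4 averaged 4.20 ± 0.220 CPM in Ncs1-/- and 3.19 ± 1.04 CPM in wild type (SD, n = 5 each). Its log2 fold change was 0.42 (SE 0.21, edgeR p 0.0722, adjusted p 0.378), and without wild-type replicate 3 it was 0.21. That library also had the lowest sums of striatal and choroid plexus markers of the cortex libraries. Htr1f averaged 6.09 ± 1.01 CPM in Ncs1-/- and 4.75 ± 1.24 CPM in wild type (SD, n = 5 each), at a log2 fold change of 0.35 (SE 0.17, edgeR p 0.0578, adjusted p 0.351). The other log2 fold changes were 0.19 for Htr1b, 0.03 for Htr2a, -0.04 for Htr7, -0.08 for Htr1a and Htr5a, and -0.14 for Htr3a. With 1 library left out, Htr1b ranged from 0.084 to 0.34 and Htr1a from -0.16 to -0.041. The median of the 9 was 0.03, beside 0.0019 over all genes, and 0 receptors had groups without overlap, against 2.15% of all genes. DESeq2 and limma-voom also called 0 receptors in cortex. Some marker lists lay to 1 side between the genotypes in cortex, with 0 genes called. The 10 striatal markers all had log2 fold changes above 0 (median 0.22), as had the 6 tested choroid plexus markers (median 0.88). The choroid plexus sum of Ncs1-/- replicate 1 was 277 CPM, while the group median was 16.5 CPM in Ncs1-/- and 14.0 CPM in wild type. The 4 astrocyte markers, with Aldh1l1 and Aqp4, were all below 0 (median -0.12). The part of tissue makeup in the receptor values was not tested.

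The spread within cortex groups differed for some receptors. Htr2a was at 34.9 ± 1.48 CPM in Ncs1-/- and 34.2 ± 8.15 CPM in wild type (SD, n = 5 each), and the SD of Htr4 was 0.220 CPM in Ncs1-/- and 1.04 CPM in wild type. These SDs rest on 5 libraries each and were not compared by a test.

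**Figure D4:**
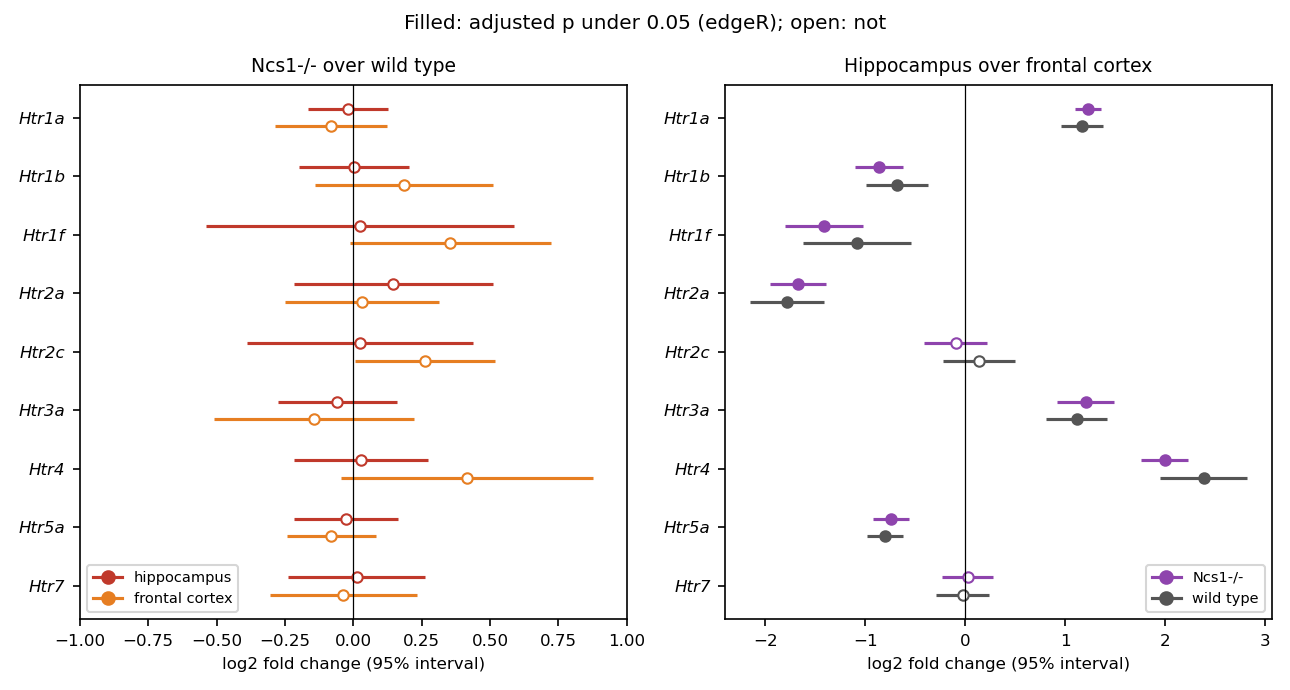
Log2 fold change with its 95% interval for each receptor, on the left Ncs1-/- over wild type in hippocampus and frontal cortex and on the right hippocampus over frontal cortex in Ncs1-/- and wild type, with filled points for an edgeR adjusted p under 0.05. All genotype points are open and lie between -0.14 and 0.42, while 7 receptors have filled points in both genotypes on the right, from -1.79 for Htr2a to 2.38 for Htr4.

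Whether the genotype effect differed between regions was tested as an interaction over the 20 libraries. For 0 of 9 receptors did it pass, where 0 of 15310 genes, or 0.00%, did, and 0 of 9 had an unadjusted p under 0.05, against 1.40% of all genes. DESeq2 called 1 gene, which was no receptor, and limma-voom also called 0 receptors. Htr4 had the largest difference, at -0.40 on the log2 scale (SE 0.24, edgeR p 0.116), followed by Htr1f at -0.34 (SE 0.32) and Htr2c at -0.24 (SE 0.24). The remaining values lay between -0.19 for Htr1b and 0.10 for Htr2a. The 95% interval of Htr4 ran from -0.91 to 0.11 and included 0.

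Other genes of serotonin signalling were read from 5 lists with 60 genes. Between genotypes 0 of 55 tested genes passed in hippocampus and 0 of 54 in cortex, and 0 of 56 had a differing effect between regions. An unadjusted p under 0.05 was found for 1 gene in hippocampus, 5 in cortex and 0 for the interaction, against 3.78%, 14.8% and 1.40% of all genes. DESeq2 called 0, 1 and 0 of them, and over all genes in cortex it called 169 of 14823. The cortex gene was Grk2, a kinase that desensitises activated receptors, at a log2 fold change of -0.13 (DESeq2 adjusted p 0.0494). Between regions 15 genes were higher and 17 lower in hippocampus of 55 tested in Ncs1-/-, and 13 were higher and 18 lower of 56 tested in wild type. Over all genes 19.2% were higher and 19.6% lower in Ncs1-/-, and 18.8% were higher and 20.7% lower in wild type.

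Among other receptors, Htr5b, a rodent receptor related to Htr5a, averaged 6.55 ± 1.14 CPM in Ncs1-/- hippocampus and 0.609 ± 0.263 CPM in Ncs1-/- cortex, and 6.38 ± 0.762 CPM in wild-type hippocampus and 0.659 ± 0.402 CPM in wild-type cortex (SD, n = 5 each). It was higher in hippocampus by 3.42 (SE 0.23) in Ncs1-/- and 3.28 (SE 0.25) in wild type on the log2 scale, opposite to Htr5a. Htr1d, a relative of Htr1b, was lower in hippocampus, at 0.362 ± 0.132 CPM against 3.97 ± 0.661 CPM in cortex in Ncs1-/- and 0.217 ± 0.136 CPM against 3.26 ± 1.11 CPM in wild type, with log2 fold changes of -3.46 (SE 0.23) and -3.90 (SE 0.37). All 4 edgeR adjusted p-values were at most 2.68e-06. Htr6, a Gs-coupled receptor, lay between 5.78 and 9.25 CPM in all libraries and was not called. Htr2b stayed at or below 0.625 CPM, and Htr3b was not listed in either table.

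Genes of serotonin synthesis and transport are mainly used in raphe neurons, whose axons but not cell bodies reach these regions. Tph2, the neuronal enzyme that starts serotonin synthesis, averaged 1.16 ± 0.0433 CPM in Ncs1-/- and 1.0 ± 0.215 CPM in wild-type hippocampus, and 0.807 ± 0.281 CPM in Ncs1-/- and 0.875 ± 0.217 CPM in wild-type cortex (SD, n = 5 each). The serotonin transporter gene Slc6a4 was at most 0.193 CPM in hippocampus, the table that lists it. Slc18a2, listed with them as a marker of serotonin neurons, was at a higher level. It averaged 11.1 CPM in Ncs1-/- and 9.50 CPM in wild-type hippocampus, and 8.97 CPM in Ncs1-/- and 8.33 CPM in wild-type cortex. In the list of serotonin supply and removal 4 genes were higher and 1 lower in Ncs1-/- hippocampus than in cortex, and 4 higher and 2 lower in wild type. Slc29a4, a monoamine transporter, was higher in hippocampus by 2.04 in Ncs1-/- and 2.02 in wild type on the log2 scale, and Spr, which makes the cofactor of serotonin synthesis, by 0.54 and 0.38. Slc22a3, a low-affinity monoamine transporter, was lower in hippocampus, with log2 fold changes of -2.52 in Ncs1-/- and -2.64 in wild type. Maoa, which breaks serotonin down, had a log2 fold change of -0.02 in Ncs1-/-, where it did not pass, and passed in wild type at -0.14 (edgeR adjusted p 0.0499); the difference between these was not called.

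Of the G protein alpha subunits, 3 were higher and 1 lower in Ncs1-/- hippocampus than in cortex, and 3 higher and 2 lower in wild type. Gnaq, the partner of Htr2a and Htr2c, had a log2 fold change of 0.38 in Ncs1-/- and 0.35 in wild type, and Gna14 of the same family 1.95 and 2.34. Gnal, the stimulatory subunit of striatal and olfactory neurons, was lower in hippocampus, at -1.17 and -1.12, as were the summed striatal markers given above, whose part was not tested. Gnaz had a log2 fold change of -0.06 in Ncs1-/-, where it did not pass, and passed in wild type at -0.11.

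The effector list had 2 genes higher and 7 lower in Ncs1-/- hippocampus than in cortex, and 1 higher and 6 lower in wild type. Plcb4, a phospholipase C downstream of Gq, had a log2 fold change of -1.64 in Ncs1-/- and -1.97 in wild type. This was the direction of Htr2a and opposite to that of Gnaq and Gna14. Adcy5, the main adenylyl cyclase of striatal neurons, had values of -1.23 and -1.11, and Adcy9 of 0.33 and 0.28. Among partners and editors 5 were higher and 7 lower in Ncs1-/- and 4 higher and 7 lower in wild type. Rgs4, which speeds the switching off of Gi and Gq signals, was at -1.49 in Ncs1-/- and -1.51 in wild type, and the receptor kinase gene Grk5 at -0.68 and -0.97. Arrb2, an arrestin that binds phosphorylated receptors, was at 0.51 and 0.45. Adarb2, a brain protein of the RNA editing enzyme family, was at 0.26 and 0.42. The relatives of Arrb2 and Adarb2 on the list had lower means in hippocampus than in cortex. Arrb1 averaged 282 against 432 CPM in Ncs1-/- and 292 against 442 CPM in wild type. Adarb1 averaged 204 against 278 CPM in Ncs1-/- and 205 against 283 CPM in wild type. Adar averaged 169 against 202 CPM in Ncs1-/- and 169 against 199 CPM in wild type.

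Genes whose level was most like that of each receptor were found among 13991 genes that averaged 1 CPM or more, by Pearson's r of log2 CPM over the 20 libraries, which share region, genotype and library. Htr1a was most like Fibcd1 (r 0.99) and C1ql2 (r 0.99), both on the list of hippocampal markers, and they remained its closest genes after each gene was centred on its group means (r 0.82 and 0.78). Htr2a was most like Ppp1r9a (r 0.99) and Kcnh7 (r 0.99), and Ppp1r9a led after centring as well (r 0.92), followed by Pcdhb17 (r 0.91). Htr1b was most like Tbc1d8 (r 0.95) and Pde10a (r 0.95), the latter on the striatal list, and after centring most like Gm10754 (r 0.85) and Gpr52 (r 0.83). Htr4 was most like Lhx9 (r 0.98) and Jun (r 0.98), and after centring Col6a5 and Filip1 (r 0.86 each).

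For Htr2c the closest genes were Wdr78 (r 0.85) and Cgnl1 (r 0.79), and after centring Scube3 (r 0.91) and Wdr78 (r 0.89). Htr7 was closest to Kif26a both before (r 0.85) and after centring (r 0.91), with Pafah1b3 (r 0.78) and H2-M3 (r 0.84) next. Htr5a was closest to D1Ertd622e before (r 0.98) and after centring (r 0.81), with Grm8 (r 0.98) and Zmat4 (r 0.80) next. Htr1f was most like Cadm2 (r 0.95) and Robo2 (r 0.94), and after centring Uhrf1bp1l (r 0.87) and Cadm2 (r 0.86). Htr3a was most like Rpa1 (r 0.97) and Msra (r 0.96). The 7 receptors that differed between regions had r values of 0.94 or more before centring, and Htr2c and Htr7 had values of 0.78 to 0.85.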

How the data were processed

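Per the labels' protocols, RNA came from flash-frozen tissue by the RNeasy Mini kit. The authors deposited expected counts for each gene, not scaled for depth, in 1 table per region. This unit was read from the values, of which 22.6% to 27.3% per library lay more than 0.001 from a whole number. STAR 2.7.3a, Partek and build mm10 are named in the submitters' processing notes. The sources used here do not name the annotation, strand setting or filters, and the lowest total of a listed gene was 10 in each table. Starts are those of the deposited tables and ends are the last base, 1 less than the deposited stop. No pair of libraries in a group was near sampling noise (lowest chi-square per degree of freedom 3.45).

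Expected counts were rounded and fitted for all genes in edgeR 4.0.16 (R 4.3.3) with filterByExpr, TMM scaling, quasi-likelihood tests and Benjamini-Hochberg adjustment at 0.05, within each region or genotype, or over 20 libraries for the interaction. Intervals are 95% t intervals. Levels are CPM after TMM over the 20 libraries, divided by the GENCODE M21 exonic length in kb for order. The scripts were tested on simulated counts. Members, gene lists and marker lists were chosen with earlier results of these data known. The text names all 9 receptors, in each signalling list up to 2 genes per direction with the largest wild-type region difference among those that passed, the 2 defining markers per list it uses, and the 2 most similar genes, except that those of Htr3a after centring are not reported here. Htr6, Htr2b, Htr3b, Tph2, Slc6a4, Slc18a2, Arrb1, Adar, Adarb1, Grk2 and Dlg4 are named outside that rule, after their values were seen. Alternatives were DESeq2 1.42.0, limma-voom (limma 3.58.1), other scaling, no filter, a common fit, the replicate number as a block, removal of the length trend (lowess, span 0.3), left-out libraries, and, chosen after seeing the data, Htr1b summed with its antisense gene.

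Whether equal replicate numbers pair libraries was checked by the correlation of their deviations from the group mean. Between regions in wild type all 5 pairs had r from 0.140 to 0.468, and each hippocampus library correlated best with the cortex library of its own number. In the other comparisons at least 1 pair was below 0.1. Between regions in Ncs1-/- that pair was replicate 2, at -0.196. There replicates 1, 3 and 4 correlated best with their own number, and replicates 2 and 5 did not. The main tests, also those between regions in wild type, were fitted without pairing. The replicate number entered only as a block among the alternatives. With that block the edgeR adjusted p of Htr1b between regions in wild type was 0.000286, against 0.00197 in the main fit.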

Additional observations from a re-analysis of the deposited data

Results flagged for a closer look

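In each of 36 groups of 5 libraries, 9 receptors in 4 groups, the highest and lowest library was set against the range of its group, and chance alone marks about 1 group in 20. Htr2c in Ncs1-/- hippocampus replicate 2, at 110.56 CPM, lay far above the other libraries of its group, and this library had the most Ttr. Htr5a in wild-type hippocampus replicate 1, at 21.1 CPM, lay above the other 4 libraries. Htr7 in Ncs1-/- cortex replicate 1, at 16.7 CPM, lay above the others of its group, and this library had the most choroid plexus markers of the cortex libraries and the highest Rn45s share (4.0%) of the 20. Their part in the level was not tested.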

How the results depend on the processing

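In the comparisons of genotype and in the interaction, 0 of 9 receptors were called under every alternative run. Between regions the same 7 receptors were called under every alternative, and Htr2c was added in Ncs1-/- when replicate 2 of hippocampus or the 3 libraries highest in Ttr were left out, at log2 fold changes of -0.30 and -0.29. Without those 3 libraries edgeR called 0 of 15103 genes between genotypes in hippocampus, against 4 with them. The targeted gene Ncs1 was not called in that fit either, so it cannot show whether a receptor differs. With all 20 libraries in 1 fit edgeR called 7 genes in cortex, against 4. Counts of other signalling genes called in cortex rose to 1 with DESeq2 (Grk2), where 169 of 14823 genes were called. They ranged from 0 to 2 when a library was left out. The 2 were Grk2 and Dlg4 without wild-type replicate 5, where 563 of 14915 genes were called. With the longest transcript as length, 5 of 9 receptors held their rank per kb in Ncs1-/- hippocampus and 3 in wild-type hippocampus.

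No value with a reversed sign passed, and the cause was not tested. Most were near 0, but the -0.19 of Htr1f below was larger in size than each main genotype value in hippocampus. For Ncs1-/- over wild type in hippocampus, Htr1b was -0.0060 with no filter, -0.0040 with all libraries in 1 fit and -0.0018 with its antisense gene added, Htr2c was -0.014 with the length trend removed, and without the libraries highest in Ttr Htr1f was -0.19, Htr2c -0.033 and Htr7 -0.045. Between regions Htr7 was 0.0033 with total-count scaling and 0.022 without the Ttr libraries in wild type and -0.016 with the length trend removed in Ncs1-/-, and Htr2c was -0.0038 in wild type without the Ttr libraries. The interaction of Htr7 was -0.0084 without them.

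With each library left out in turn, the hippocampus genotype values ranged from -0.077 to 0.021 for Htr1a, -0.057 to 0.048 for Htr1b, -0.13 to 0.23 for Htr1f, 0.049 to 0.26 for Htr2a, -0.18 to 0.17 for Htr2c, -0.16 to -0.0012 for Htr3a, -0.056 to 0.076 for Htr4, -0.072 to 0.028 for Htr5a and -0.067 to 0.066 for Htr7. In cortex they ranged from -0.16 to -0.041 for Htr1a, 0.084 to 0.34 for Htr1b, -0.093 to 0.13 for Htr2a, -0.28 to -0.060 for Htr3a, -0.13 to -0.023 for Htr5a and -0.17 to 0.036 for Htr7. Between regions they ranged from -0.020 to 0.16 for Htr7 in Ncs1-/-, from -0.083 to 0.052 for Htr7 in wild type and from -0.0038 to 0.23 for Htr2c in wild type. The interaction ranged from -0.016 to 0.21 for Htr3a, -0.0049 to 0.10 for Htr5a and -0.035 to 0.18 for Htr7.

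With the replicate block, 0 receptors were called between genotypes in either region, 7 between regions in each genotype, and 0 for the interaction with genotype and number taken as 1 mouse (limma-voom, correlation 0.204). For Ncs1-/- over wild type in cortex Htr2c was at 0.28 with the block (edgeR adjusted p 0.249). Over all genes the block gave 4 calls between genotypes in each region, and 6250 between regions in Ncs1-/- and 6629 in wild type.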

Other observations

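As shares of the summed CPM per kb of the 9 receptors, Htr1a made up 27.6 ± 1.80% in Ncs1-/- hippocampus and 28.0 ± 3.03% in wild-type hippocampus, and 11.8 ± 0.781% in Ncs1-/- cortex and 13.3 ± 2.31% in wild-type cortex (SD, n = 5 each). Htr2a made up 4.80 ± 1.14% in Ncs1-/- and 4.30 ± 0.564% in wild-type hippocampus, and 15.3 ± 0.734% in Ncs1-/- and 15.7 ± 3.40% in wild-type cortex (SD, n = 5 each). Htr4 made up 8.37 ± 1.52% in Ncs1-/- and 8.14 ± 0.619% in wild-type hippocampus, and 2.10 ± 0.170% in Ncs1-/- and 1.67 ± 0.525% in wild-type cortex (SD, n = 5 each). Htr2c, whose length is the least certain, made up 18.0% to 20.5% on average in all 4 groups. Shares of a sum are tied to each other, and these were not tested.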
